A study of Mus musculus with 52 samples.

Results

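The comparison described here is that of mice lacking Mir146 (KO) with wild-type mice (WT) in the whole cortex at embryonic day 14 (E14). It rests on 9 RNA libraries, 5 KO and 4 WT, out of 52 in the series. The libraries were chosen by the columns of the E14 table, each of which names its genotype and replicate. The other libraries come from frontal cortex, hippocampus and amygdala 30 and 60 days after birth (P30 and P60). KO stands for loss of the gene for miR-146a, and the labels give neither the strain nor how, or in which cells, the allele was made. The series text says that the mice had different mothers, and p-values here measure the spread between these 9 libraries only. Each library is poly-A RNA of a whole dissected cortex, so fewer cells of a type and less RNA per cell cannot be told apart. Values are normalised read counts on a counts-per-million (CPM) scale, with 8079912 to 9469214 reads per library.

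MicroRNAs pair through their seed, a short stretch near the 5′ end, with sites in the 3′ untranslated region (UTR) of messenger RNAs, which are then translated less and degraded. miR-146a is best known as a brake on innate immune signalling: it is induced through NF-kB and acts on the adaptors Traf6 and Irak1 of the Toll-like and interleukin-1 receptor pathways. In the embryonic cortex, radial glia divide at the ventricle and give rise to intermediate progenitors and neurons, and Notch signalling, of which Notch1 and its inhibitor Numb are parts, holds radial glia in the dividing state.

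The tissue was checked against its markers before the results. Lhx2, a cortical selector gene, was at 316 ± 111 in KO and 300 ± 114 in WT (mean ± SD). Emx1 and Emx2, of the dorsal telencephalon, were at 27.4 ± 7.52 and 64.4 ± 29.4 in KO and at 22.7 ± 8.93 and 62.1 ± 22.8 in WT. Dlx1, a gene of the ganglionic eminence and of the interneurons that migrate from it into the cortex, was at 329 ± 61.0 in KO and 336 ± 59.5 in WT. Mir146 had 0 reads in the 9 libraries, and since poly-A libraries do not capture a mature microRNA, the genotype labels were not checked by it. KO replicates 4 and 5 were closest to each other among all libraries and stood apart from the rest. Their summed level of 26 cell cycle genes was 3427 and 3582, against 4435 to 6056 in the other 7 libraries, and that of 18 neuron genes was 9934 and 9892, against 6603 to 8636. KO replicate 1 and WT replicate 3 held traces of transcripts of the other sex. Most gene lists are also given without KO replicates 4 and 5, and without KO replicate 1 and WT replicate 3.

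The mature sequence of miR-146a is given with its seed in capitals, because every target site that follows is read against it (RefSeq, GRCm38.p6, chromosome 11, 43374435 to 43374456, minus strand). Of 1738 mature mouse sequences, 2 hold this seed. The other belongs to miR-146b, a separate gene on chromosome 19.
miR-146a-5p: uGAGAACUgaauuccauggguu
miR-146b-5p: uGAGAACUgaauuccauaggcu

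Sites for this seed were searched in the longest annotated 3′ UTR of each gene as AGTTCTCA (8mer), AGTTCTC (7mer-m8) or GTTCTCA (7mer-A1), on the transcribed strand only. The longest 3′ UTR of Traf6 held 4 sites and that of Irak1 held 3, and those of Notch1 and Numb held 1 each. They are printed with the site in capitals, since these 4 genes are the ones through which miR-146a is most often said to act on immunity and on neurogenesis.
Traf6, site 1: accgctctggtgttgAGTTCTCAttt
Traf6, site 2: tccctggaaggcttaAGTTCTCAagt
Traf6, site 3: agtactttggagtctAGTTCTCAggg
Traf6, site 4: ggactttgctactgcAGTTCTCAaac
Irak1, site 1: agactcagaggtcaaAGTTCTCAtgc
Irak1, site 2: gttctcatgcttggaAGTTCTCAtag
Irak1, site 3: gcagtggaccctgctGTTCTCAgaa
Notch1: ccaagaaaataaactAGTTCTCAgag
Numb: tagaatattttaaatAGTTCTCAata

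None of the reported targets passed the test in KO cortex. Traf6, the ubiquitin ligase that relays Toll-like receptor signals, was at 69.70, 77.37, 72.08, 71.53 and 70.14 in KO replicates 1 to 5 and at 67.74, 78.98, 68.56 and 73.11 in WT replicates 1 to 4. The ranges lay within each other, and the log2 fold change of KO over WT was 0.003 (SE 0.0660, limma adjusted p = 1.00). Irak1, the kinase just above Traf6, was at 47.72, 49.78, 51.56, 45.92 and 48.71 in KO and at 45.27, 47.68, 48.25 and 54.44 in WT. KO libraries again fell inside the WT range, with a log2 fold change of -0.003 (SE 0.0708). The signs of both differences turn with the scaling or the libraries used and carry no direction.

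Irak2, a related kinase, was near the lower limit of measurement, at 0.50 to 1.6 in KO and 0.54 to 1.67 in WT (log2 fold change -0.13, SE 0.213). Notch1, the receptor, was at 268.87, 256.47, 294.70, 145.53 and 177.08 in KO and at 230.17, 257.72, 272.75 and 258.53 in WT. The low KO values were those of replicates 4 and 5, which also had the low cell cycle sums. Its log2 fold change was -0.20 (SE 0.189, limma adjusted p = 1.00) and 0.10 without those 2 libraries. Numb, which antagonises Notch in dividing progenitors, was at 39.5 ± 4.66 in KO and 41.1 ± 4.66 in WT.

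Of 20 tested genes reported as targets, 11 were higher and 9 lower in KO, with a median log2 fold change of 0.015 against 0.006 over all 18350 genes tested. Among the 14 with a seed site 6 were higher in KO (median -0.012), and among the 6 without a site 5 were higher (median 0.053). The target with the smallest p was Nova1, a neuronal splicing regulator with an 8mer and a 7mer-m8 site. Nova1 was lower in KO, at 122.95, 96.68, 121.62, 137.28 and 116.91 against 171.19, 173.79, 163.03 and 133.70 in WT. KO replicate 4 lay above WT replicate 4, so the groups overlapped, and the log2 fold change of -0.43 (SE 0.105) did not pass the test over all genes (limma adjusted p = 1.00).

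Genes with a seed site lay close to genes without a site. The median log2 fold change was -0.001 for 628 tested genes with an 8mer, 0.004 for 1113 with a 7mer-m8, 0.001 for 1113 with a 7mer-A1 and 0.006 for 10598 with no site. KO was higher for 49.7%, 52.7%, 50.4% and 52.7% of these genes. No gene with an 8mer passed the test, and 8 of the 628 had KO and WT libraries that did not overlap, against 121 of the 10598 without a site. Their UTRs differ in length, with a median of 2812 bases for 8mer genes and 1002 bases for genes without a site.

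**Figure D1:**
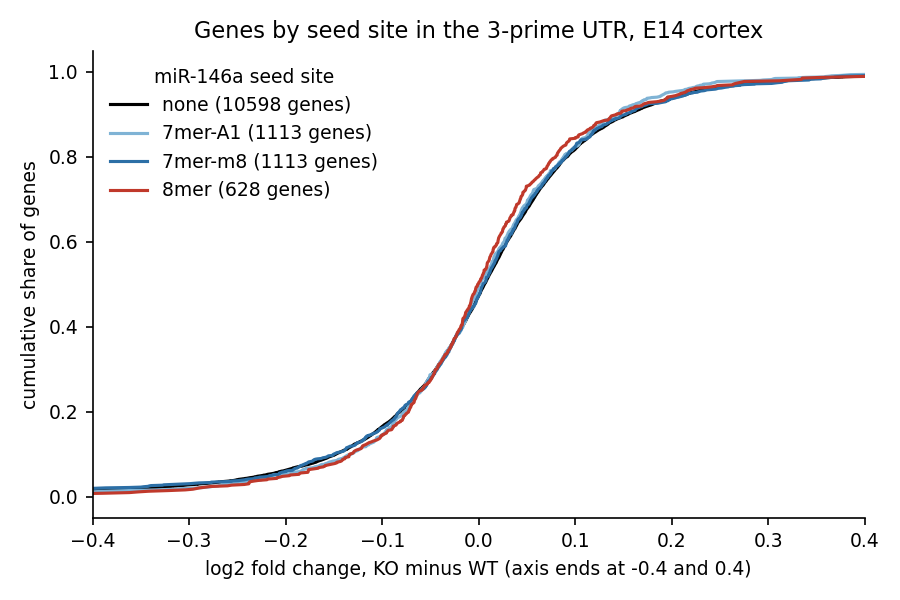
Cumulative share of tested genes (y axis) by log2 fold change of KO over WT in E14 cortex (x axis, no unit, ends at -0.4 and 0.4), for genes whose longest 3′ UTR holds an 8mer, a 7mer-m8, a 7mer-A1 or no miR-146a seed site. The 4 lines cross 0 at nearly the same height, with medians from -0.001 to 0.006.

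Across all genes, 9 of 18350 passed the test (0.049% of those tested, limma adjusted p under 0.05), 3 higher in KO (0.0163%) and 6 lower (0.0327%), and 8 of them are described here. Another 522 genes had an unadjusted p under 0.05. KO and WT libraries did not overlap for 212 genes (1.16%), 118 higher (0.643%) and 94 lower (0.512%). The genes that rose were Pttg1, Lyrm7 and the pseudogene Gm5913. Those that fell included the transcription factors Lmx1b, Foxa1 and Foxb1, the RNA C130021I20Rik and Ttc6.

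**Figure D2:**
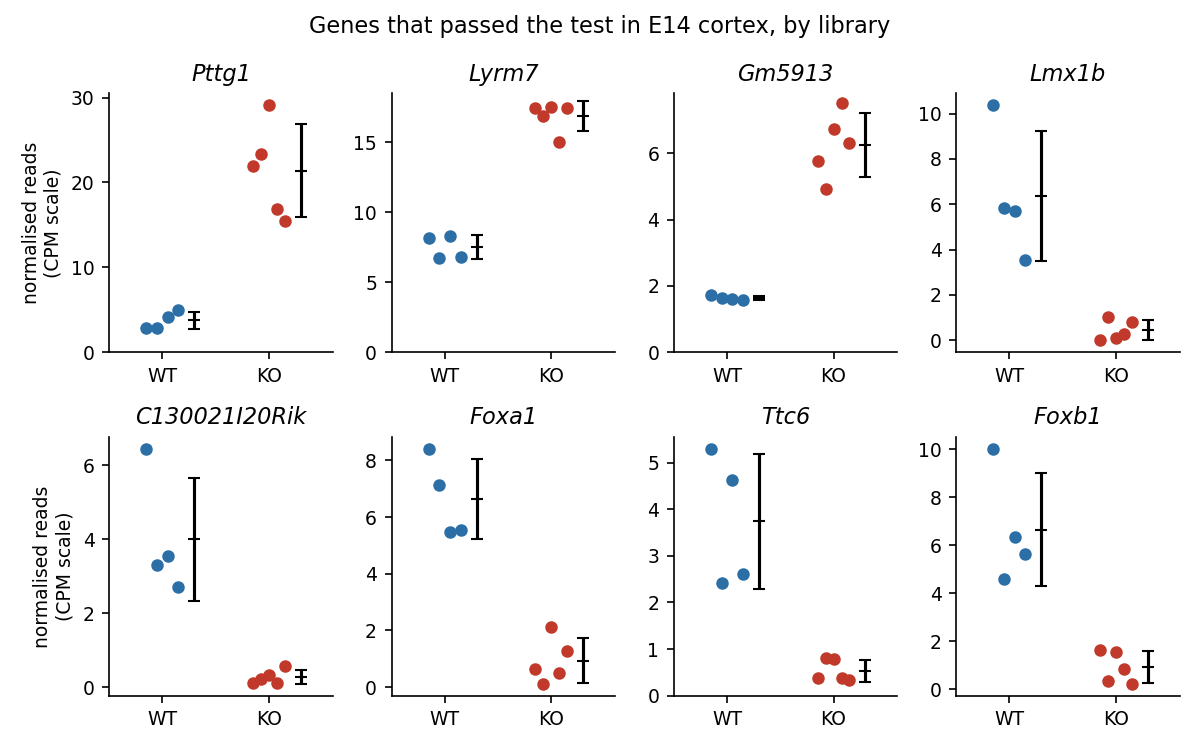
Normalised reads on the CPM scale (y axes, each from 0) for 8 genes that passed the test, by genotype (x axes): 4 WT libraries in blue and 5 KO libraries in red, with mean ± SD beside them. In every panel the KO and WT libraries lie apart, with Pttg1, Lyrm7 and Gm5913 higher and the other 5 genes lower in KO.

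Pttg1 encodes securin, the protein that holds separase inactive until the anaphase-promoting complex destroys it, so that sister chromatids part only at anaphase. It lies on chromosome 11 at 43420250 to 43426251 (GRCm38, minus strand), 45788 bases from Mir146. Its level was 21.98, 23.34, 29.15, 16.87 and 15.47 in KO and 2.88, 2.86, 4.19 and 5.01 in WT. Every KO library was more than 3 times every WT library, and KO replicates 4 and 5 were the lowest of the KO group. The means differed 5.72-fold (910 reads in KO and 138 in WT), with a log2 fold change of 2.23 (SE 0.196, limma adjusted p = 0.00101). It stayed between 2.12 and 2.36 when each library was left out in turn, with limma adjusted p of at most 0.0095.

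No other gene of chromatid separation passed the test. Of the 26 tested beside Pttg1, 7 were higher and 19 lower in KO (median -0.034). Without KO replicates 4 and 5 the counts turned to 24 and 2 (median 0.102), and without KO replicate 1 and WT replicate 3 they were 5 and 21 (median -0.037). Espl1, which encodes separase, the enzyme that securin restrains, was at 45.84, 53.45, 51.90, 23.02 and 25.33 in KO and at 36.40, 39.77, 40.51 and 45.99 in WT. The KO values lay on both sides of the WT range, with replicates 4 and 5 low. Anapc5, a subunit of the anaphase-promoting complex, was the 1 member beside Pttg1 without overlap, at 288 ± 11.9 in KO and 270 ± 3.99 in WT (log2 fold change 0.09, SE 0.0526, limma adjusted p = 1.00). Over all genes 0.643% were higher without overlap.

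The promoter of Pttg1 is printed because Pttg1 had the largest rise and no other mitotic gene listed here passed the test (RefSeq, GRCm38.p6, chr11:43425932-43426231, minus strand, with the 50 bases after the start in capitals).
Pttg1 promoter: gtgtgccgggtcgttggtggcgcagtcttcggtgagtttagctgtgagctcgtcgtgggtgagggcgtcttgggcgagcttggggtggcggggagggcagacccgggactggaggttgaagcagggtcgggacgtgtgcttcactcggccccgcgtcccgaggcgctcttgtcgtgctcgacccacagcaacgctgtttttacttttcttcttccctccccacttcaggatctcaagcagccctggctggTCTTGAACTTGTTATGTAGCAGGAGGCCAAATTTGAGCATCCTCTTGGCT
The letters TTTGAA and CCAAT, as found before many genes of late cell cycle, were searched on both strands; matches of the 2 motifs can share no more than 1 base. Neither was in this window. The window is set by the RefSeq start and lies inside the GENCODE span of Pttg1, so bases before the GENCODE start were not searched. TTTGAA was in 17.9% and CCAAT in 37.4% of 32851 promoters of the same length, and the windows of Ccnb1, Cdc20, Plk1, Cdk1 and Espl1 held TTTGAA in 4 of 5 and CCAAT in 5 of 5.

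Lyrm7 encodes a mitochondrial chaperone that brings the iron-sulphur subunit into respiratory complex III, and lies 11.47 Mb from Mir146 (chromosome 11, 54826866 to 54860916). Its level was 17.46, 16.90, 17.49, 15.02 and 17.42 in KO and 8.18, 6.70, 8.27 and 6.78 in WT. The groups were far apart and each was narrow. The means differed 2.25-fold, with a log2 fold change of 1.08 (SE 0.101, limma adjusted p = 0.00126). Of the 16 tested subunits and assembly factors of complex III, 13 were higher and 3 lower in KO (median 0.124). Lyrm7 alone passed the test (0.049% over all genes). Without Lyrm7, 12 of 15 were higher (median 0.115, against 0.006 over all genes). Uqcrfs1, the iron-sulphur subunit that Lyrm7 serves, was at 24.1 ± 5.01 in KO and 23.6 ± 3.12 in WT. Uqcrq, a small subunit whose gene lies 10.05 Mb from Mir146, was at 40.94, 38.74, 69.50, 42.60 and 41.60 in KO and 32.26, 34.38, 31.38 and 34.62 in WT, with no overlap and a high KO replicate 3 (log2 fold change 0.45, SE 0.149, limma adjusted p = 1.00). The share of all genes that were higher without overlap was 0.643%.

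Gm5913 is a processed pseudogene on chromosome 8 (97427712 to 97429110). Its level was 5.78, 4.94, 6.73, 7.51 and 6.30 in KO and 1.73, 1.65, 1.61 and 1.56 in WT, a 3.82-fold difference of means (log2 fold change 1.45, SE 0.130, limma adjusted p = 0.00101). The transcript is 98.0% identical over 1399 bases to that of G3bp1, a stress granule protein whose gene is on chromosome 11 (55469685 to 55504838), on the same side of Mir146 as Lyrm7. Reads of this pair may therefore be exchanged, and the value of Gm5913 is uncertain in that sense. G3bp1 itself was at 173 ± 23.9 in KO and 206 ± 14.8 in WT (log2 fold change -0.25, SE 0.0986, limma adjusted p = 1.00). It was named because of this likeness, after its values were seen.

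The neighbourhood of Mir146 on chromosome 11 held a larger share of separated genes than the rest of the genome. Of 322 genes tested within 20 Mb, 17 had KO and WT libraries that did not overlap (5.28%), 10 higher and 7 lower. Windows of 15 and 5 Mb, which were not planned, held 16 of 207 (7.73%) and 2 of 33 (6.06%). On the rest of chromosome 11 the libraries did not overlap for 9 of 999 genes (0.901%) and on the other chromosomes for 186 of 17029 (1.09%). The median log2 fold change within 20 Mb was 0.007, so the region was not shifted as a whole. Without KO replicates 4 and 5, which leaves fewer libraries to overlap, the counts were 39 of 322 (12.1%) within 20 Mb and 1232 of 18350 (6.71%) over all genes.

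Only Pttg1 and Lyrm7 of these 322 genes passed the test. Gfpt2, an enzyme of the hexosamine pathway 6.44 Mb away, came next, at 19.72, 17.82, 15.69, 21.05 and 23.04 in KO and 14.29, 10.88, 11.18 and 13.14 in WT (log2 fold change 0.61, SE 0.125, limma adjusted p = 0.605). Hint1, a purine phosphoramidase that lies 5466 bases from Lyrm7, was at 128.09, 133.23, 174.31, 122.26 and 120.12 in KO and 92.85, 104.47, 94.57 and 108.56 in WT (log2 fold change 0.42, SE 0.105, limma adjusted p = 1.00). In both genes the highest WT library lay below the lowest KO library. On the lower side were Zfp354a, a zinc finger gene, with 9.19 ± 1.21 in KO and 12.2 ± 0.561 in WT, and Kif3a, which carries cargo along cilia, with 141 ± 13.9 and 171 ± 8.49. Sh3pxd2b, an adaptor of podosomes, was also lower without overlap (112 ± 8.45 against 126 ± 2.27), while Cenpv and Tbc1d9b were higher (46.6 ± 6.37 against 38.6 ± 1.68, and 76.7 ± 2.47 against 68.8 ± 3.16). None of these 7 genes passed the test, with limma adjusted p from 0.605 to 1.00.

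**Figure D3:**
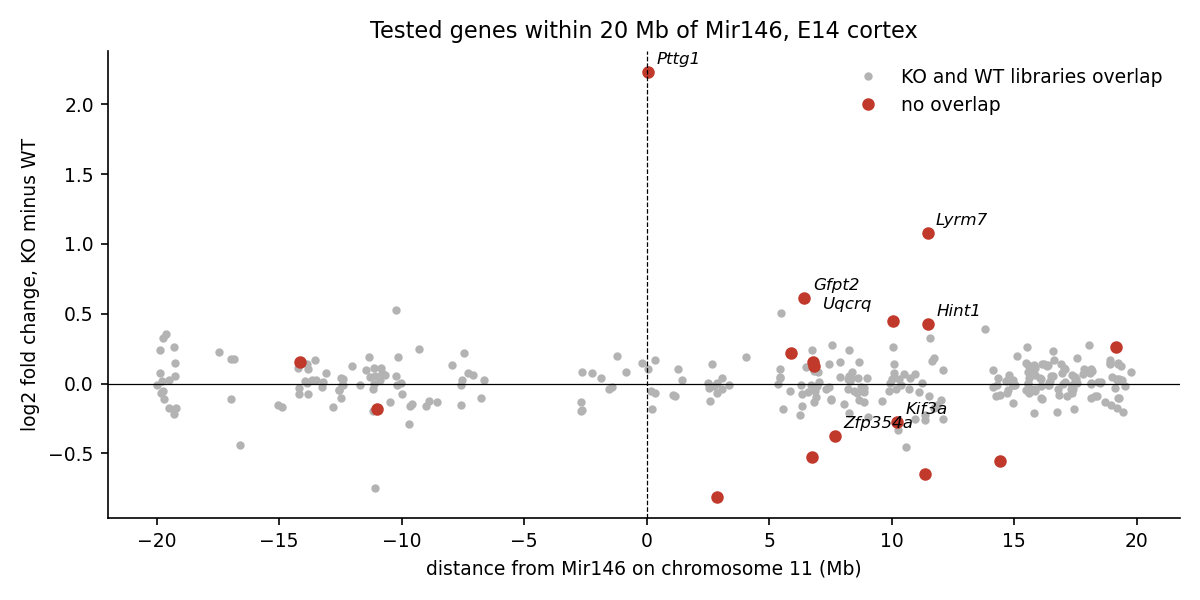
Log2 fold change of KO over WT in E14 cortex (y axis) against distance from Mir146 on chromosome 11 in Mb (x axis, dashed line at Mir146) for the 322 genes tested within 20 Mb. Red points are the 17 genes with KO and WT libraries apart from each other; Pttg1 (2.23) and Lyrm7 (1.08) stand highest.

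Lmx1b, a LIM homeobox factor of midbrain dopaminergic and hindbrain serotonergic neurons, fell in KO. Its level was 0, 1.03, 0.11, 0.25 and 0.80 in KO and 10.37, 5.82, 5.70 and 3.55 in WT (19 and 230 reads in all). WT replicate 1 was the highest and the lowest WT library was still above every KO library. The means differed 14.5-fold, with a log2 fold change of -2.33 on the log2(value + 1) scale (SE 0.281, limma adjusted p = 0.0123). C130021I20Rik, an RNA without known protein product that starts beside Lmx1b and runs the other way, followed it, at 0.13, 0.23, 0.34, 0.12 and 0.57 in KO and 6.45, 3.30, 3.55 and 2.71 in WT (log2 fold change -1.93, SE 0.204, limma adjusted p = 0.00357). WT replicate 1 was the highest library for both genes. The call for Lmx1b ended without KO replicate 4 (limma adjusted p = 0.061) and without WT replicate 3 (0.0787), while that for C130021I20Rik held without each single library.

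The pair lie 681 bases apart in the GENCODE annotation, and their RefSeq promoter windows share 194 bases (chr2:33641049-33641242). The Lmx1b window is printed because these genes moved together, with the shared part in capitals (chr2:33641049-33641348, minus strand).
Lmx1b promoter: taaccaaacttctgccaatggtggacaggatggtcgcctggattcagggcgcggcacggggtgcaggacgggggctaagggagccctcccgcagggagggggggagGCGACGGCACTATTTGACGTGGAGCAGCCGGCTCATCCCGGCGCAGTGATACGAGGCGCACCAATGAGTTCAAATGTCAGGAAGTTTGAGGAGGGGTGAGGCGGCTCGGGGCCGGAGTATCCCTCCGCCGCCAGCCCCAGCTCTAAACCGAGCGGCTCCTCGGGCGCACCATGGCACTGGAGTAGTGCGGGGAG

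Foxa1, a forkhead factor of the floor plate and ventral midbrain, was at 0.63, 0.11, 2.13, 0.49 and 1.26 in KO and 8.41, 7.14, 5.48 and 5.53 in WT (log2 fold change -2.06, SE 0.269, limma adjusted p = 0.0196). Ttc6, a gene of unsettled function 17196 bases from Foxa1, was at 0.38, 0.80, 0.78, 0.37 and 0.34 in KO and 5.30, 2.42, 4.62 and 2.61 in WT (log2 fold change -1.59, SE 0.208, limma adjusted p = 0.0196). For both, all 5 KO libraries lay below all 4 WT libraries. When each library was left out in turn, Foxa1 passed in 3 of 9 fits (limma adjusted p from 0.00556 to 0.108) and Ttc6 in 4 of 9 (from 0.0277 to 0.123).

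The Foxa1 promoter is printed with TGTTTAC, the core bound by forkhead proteins, in capitals (here on the other strand, chr12:57546062-57546361, minus strand). The letters were found at position -141 from the RefSeq start in Foxa1 and in 3.65% of all promoters, on either strand, and not in the windows of Lmx1b, Lyrm7 and Pttg1. The Foxa1 window lies inside the GENCODE span of the gene (57540628 to 57546916), so bases before the GENCODE start were not searched.
Foxa1 promoter: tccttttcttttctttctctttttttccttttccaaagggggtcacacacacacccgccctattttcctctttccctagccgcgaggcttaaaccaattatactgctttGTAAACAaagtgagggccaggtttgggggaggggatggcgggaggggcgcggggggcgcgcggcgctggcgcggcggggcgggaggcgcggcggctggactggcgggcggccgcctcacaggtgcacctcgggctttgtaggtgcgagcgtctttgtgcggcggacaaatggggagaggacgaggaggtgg

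Foxb1, a forkhead factor of the mammillary hypothalamus and thalamus, was at 1.63, 0.34, 1.57, 0.86 and 0.23 in KO and 10.02, 4.61, 6.34 and 5.63 in WT (log2 fold change -2.01, SE 0.272, limma adjusted p = 0.0243). It passed in 4 of 9 fits without a library (limma adjusted p from 0.0355 to 0.145). Foxb1 overlaps the antisense RNA B230323A14Rik over 2201 bases, and whether counting used the strand is not given in the sources used here. B230323A14Rik, named for this overlap, was at 0.284 ± 0.133 in KO and 2.78 ± 1.44 in WT (log2 fold change -1.48, SE 0.234, limma adjusted p = 0.0793).

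The calls for these low genes were not stable. With a pseudocount of 0.1 or by limma-voom, Lmx1b, Foxa1 and Foxb1 missed the threshold (limma adjusted p from 0.113 to 0.364) with larger log2 folds. Without KO replicate 1 and WT replicate 3 none of the 5 lower genes described here passed (from 0.125 to 0.408).

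These factors are known from tissue outside the cortex, and the lists of such tissue hold the called genes themselves. Of 13 tested genes of the ventral midbrain and floor plate, 3 passed the test (0.049% over all genes), and these were Lmx1b, Foxa1 and Ttc6. Among the 10 others 9 were lower in KO (median -0.50, against 47.5% lower and a median of 0.006 over all genes), none passed, and 1 did not overlap (0.512% of all genes were lower without overlap). Of the 13 genes, 5 reached the limit on low reads in fewer than 4 KO libraries, so WT libraries were needed for them to be tested, and the count of lower genes is no support for a fall of the list. The summed level of the list was 169 to 209 in KO and 216 to 293 in WT. This sum includes the 3 called genes, so its gap is no support for a fall of the other members. Nkx2-2, a ventral patterning factor and the separated gene among the 10, was at 5.02, 0.57, 3.59, 3.20 and 0.34 in KO and 7.26, 9.01, 12.14 and 8.97 in WT, without overlap (log2 fold change -1.76, SE 0.428, limma adjusted p = 1.00). Among members too low to test, Foxa2 had 0 reads in KO and 24 in WT, and En1, a midbrain gene, 0 and 15. Nr4a2, named after its values were seen, was the member that was not lower (log2 fold change 0.04).

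Of 18 tested genes of the hypothalamus list 2 passed the test, Foxb1 among them (0.049% over all genes). The 16 others were all lower in KO (median -1.01), none passed, and 5 did not overlap, Nkx2-2 among them (0.512% of all genes were lower without overlap). For 12 of the 18 the limit on low reads was not reached in 4 KO libraries, so WT libraries were needed for them to be tested and this count too is no such support. The summed level was 90.3 to 250 in KO and 196 to 356 in WT, so the sums did overlap. Barhl1, a homeobox gene of the mammillary region, was at 0.63, 1.26, 0.90, 1.11 and 1.72 in KO and 7.49, 3.30, 5.05 and 3.34 in WT, and missed the threshold (log2 fold change -1.41, SE 0.222, limma adjusted p = 0.0793). Irx5, an Iroquois factor, had a mean of 0.560 ± 0.507 in KO against 2.65 ± 1.08 in WT (log2 fold change -1.24, SE 0.250, limma adjusted p = 0.569). Sim1, a factor of the paraventricular nucleus, overlapped, at 29.14, 9.31, 15.92, 13.79 and 7.11 in KO and 26.96, 33.62, 44.28 and 20.13 in WT, with KO replicate 1 inside the WT range.

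Of 16 thalamus genes 15 were lower (median -0.49) and none passed the test. For 2 of the 16 the limit on low reads was not reached in 4 KO libraries, so they were tested through WT libraries. Tcf7l2, a thalamic factor of Wnt signalling, was the member without overlap (0.512% of all genes were lower without overlap). Tcf7l2 was at 90.55, 56.10, 236.08, 219.28 and 45.39 in KO and 325.10, 385.37, 240.94 and 259.68 in WT (log2 fold change -1.51, SE 0.475, limma adjusted p = 1.00). KO replicates 3 and 4 came close to the lowest WT library and the other 3 KO libraries were far below it. Without KO replicates 4 and 5 the lower counts, called genes left aside, were 10 of 10 for midbrain and floor plate (median -0.26), 15 of 16 for hypothalamus (median -0.70) and 14 of 16 for thalamus (median -0.40). Without KO replicate 1 and WT replicate 3 they were 10 of 10 (median -0.44), 15 of 16 (median -0.96) and 16 of 16 (median -0.53).

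Meningeal genes were also mostly lower, 8 of 10 (median -0.28), as were choroid plexus and hem genes, 10 of 13 (median -0.12), and none passed the test. For 4 of the 10 and 4 of the 13 the limit on low reads was not reached in 4 KO libraries. WT libraries were needed for those members to be tested. Both lists depended on the libraries used. The medians were 0.27 and 0.22 without KO replicates 4 and 5, with 9 of 10 and 11 of 13 higher. Without KO replicate 1 and WT replicate 3 they were -0.82 and -0.46, with 9 of 10 and 13 of 13 lower. Leaving out 1 library at a time gave medians from -0.77 (without WT replicate 3) to 0.20 (without WT replicate 4) for meninges and from -0.59 (without KO replicate 2) to 0.23 (without WT replicate 4) for choroid plexus and hem. The same settings kept the median between -0.72 and -0.43 for midbrain and floor plate, -1.26 and -0.85 for hypothalamus and -0.62 and -0.35 for thalamus, called genes included. These medians also include members that needed WT libraries to be tested, 5 of 13, 12 of 18 and 2 of 16. Their place below 0 is therefore no support for a fall. How much of each neighbouring tissue a dissection held was not measured, and its part in the falls of Lmx1b, Foxa1, Ttc6 and Foxb1 was not tested.

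Cajal-Retzius cells, the early-born neurons of the cortical surface that secrete reelin, were read from 11 genes, of which 10 were lower in KO (median -0.41). It was 8 of 11 without KO replicates 4 and 5 (median -0.14), and without KO replicate 1 and WT replicate 3 it was 11 of 11 (median -0.35). Lhx1, a LIM homeobox factor, was at 22.23, 14.25, 28.58, 12.31 and 5.39 in KO and 42.28, 44.05, 42.13 and 36.19 in WT (log2 fold change -1.44, SE 0.361, limma adjusted p = 1.00). Ebf3, a factor of the same cells, was at 50.86, 40.69, 46.52, 33.86 and 15.70 in KO and 92.05, 89.09, 67.38 and 55.59 in WT (log2 fold change -1.07, SE 0.302, limma adjusted p = 1.00). Neither gene overlapped between genotypes (0.512% of all genes were lower without overlap), and KO replicate 5 was lowest in both. Reln itself, the defining product of these cells, was at 335 ± 59.0 in KO and 341 ± 31.6 in WT. Lhx1 is also known from the diencephalon.

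Counts of cell cycle, Notch, radial glia and neuron genes turned when KO replicates 4 and 5 were left out, and those of intermediate progenitors did not. Of 26 cell cycle genes 24 were lower in KO (median -0.074), and without those libraries 25 were higher (median 0.211). Of 12 genes of intermediate progenitors 8 were higher with all libraries (median 0.055) and 11 without KO replicates 4 and 5 (median 0.252), but 6 without KO replicate 1 and WT replicate 3 (median -0.014). Mki67, a marker of dividing cells, was at 1763.06, 1825.84, 1833.12, 988.80 and 1107.97 in KO and 1422.97, 1598.92, 1507.54 and 1779.89 in WT. KO replicates 2 and 3 were above the WT range, replicate 1 inside it, and replicates 4 and 5 far below it. Cdkn1b, an inhibitor of cell cycle entry, was the member without overlap, at 136 ± 5.63 in KO and 122 ± 8.10 in WT (log2 fold change 0.16, SE 0.0633, limma adjusted p = 1.00). Over all genes 0.643% were higher without overlap.

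Notch pathway genes followed the same split, with 22 of 24 lower (median -0.079) and 18 of 24 higher without the 2 libraries (median 0.060). Radial glia genes were lower for 13 of 18 (median -0.052) and higher for 14 of 18 without them (median 0.143). Neuron genes were higher for 14 of 18 (median 0.077) and lower for 14 of 18 without them (median -0.100). Upper-layer genes were higher for 10 of 12 (median 0.163) and lower for 9 of 12 without them. Without KO replicate 1 and WT replicate 3 the directions were those of all 9 libraries, with medians of -0.149 for cell cycle, -0.117 for Notch, -0.106 for radial glia, 0.116 for neuron and 0.190 for upper-layer genes. No gene of these lists passed the test.

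Among the genes higher in KO that missed the threshold was Tbr1, which specifies deep-layer neurons. It was at 421.33, 399.01, 424.06, 471.07 and 550.03 in KO and 351.48, 336.48, 332.50 and 354.27 in WT (log2 fold change 0.39, SE 0.0874, limma adjusted p = 0.907). Every KO library was above every WT library, and KO replicates 4 and 5 were the highest. Of 12 deep-layer genes 8 were higher (median 0.23, 0.04 without those libraries, and 0.21 without KO replicate 1 and WT replicate 3).

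Other genes with the smallest p that missed the threshold were Rwdd3, a regulator of SUMO conjugation (16.6 ± 1.18 in KO, 12.6 ± 0.70 in WT), Lypd6, a membrane-anchored modulator of nicotinic receptors (27.99 ± 4.33 and 19.01 ± 2.98), and Sppl2a, an intramembrane protease (89.9 ± 4.28 and 76.5 ± 3.69). Lower in KO were Sorcs2, a sorting receptor (22.2 ± 4.54 and 35.0 ± 2.76), Zfhx3, a homeodomain factor (371 ± 77.7 and 580 ± 79.7), Onecut2 (52.9 ± 11.7 and 85.0 ± 13.1), Plekha6 (105 ± 11.8 and 136 ± 15.8) and Ppnr (12.8 ± 4.80 and 22.96 ± 2.47). Onecut2 belongs to a family of factors found in early neurons of several brain regions. Their limma adjusted p ran from 0.678 to 1.00. Ppnr is annotated inside Tcf7l2 on the same strand, so its reads may be those of Tcf7l2, which was not tested. Sst, the interneuron peptide somatostatin, was the ganglionic eminence gene without overlap (60.3 ± 13.3 in KO and 46.0 ± 1.08 in WT), within a list of which 15 of 20 were lower (median -0.068), and 7 of 20 without KO replicates 4 and 5 (median 0.006). The share higher without overlap was 0.643% over all genes.

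Genes encoded by the mitochondrial genome were higher in KO for 15 of 15 (median 0.135), against 9629 of 18350 over all genes, and none passed the test. Their summed level was 27781 to 31385 in KO and 25265 to 27391 in WT, without overlap. mt-Rnr1, the small ribosomal RNA, was at 1302.67, 1494.54, 1376.32, 1605.03 and 1765.28 in KO and 1216.53, 1033.61, 1147.53 and 1272.53 in WT (log2 fold change 0.37, SE 0.0935, limma adjusted p = 1.00). mt-Co2, a subunit of cytochrome oxidase, was the other member without overlap, at 10.3 ± 0.204 in KO and 9.33 ± 0.708 in WT (0.643% of all genes were higher without overlap). All 15 stayed higher without KO replicates 4 and 5 (median 0.168) and without KO replicate 1 and WT replicate 3 (median 0.092). Without KO replicate 3 alone, or WT replicate 1 alone, 14 of 15 were higher (medians 0.097 and 0.158). These genes are transcribed together and are not independent.

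No gene of immune signalling passed the test. Genes of Toll-like and interleukin-1 receptor signalling were higher for 8 of 14 (median 0.014) and NF-kB subunits and inhibitors for 7 of 14 (median 0.031), and every gene of both lists overlapped between genotypes. Rela, the main activating subunit, was at 43.1 ± 7.95 in KO and 40.1 ± 4.00 in WT. Interferon-stimulated genes were higher for 15 of 16 (median 0.315), with 0 calls and 1 gene without overlap (0.643% of all genes were higher without overlap). This gene was Irf9, a subunit of the interferon response factor (14.1 ± 1.12 in KO against 11.1 ± 1.22 in WT, log2 fold change 0.32, SE 0.103, limma adjusted p = 1.00). Without KO replicates 4 and 5 interferon-stimulated genes were higher for 11 of 16 (median 0.144), and without KO replicate 1 and WT replicate 3 for 15 of 16 (median 0.212). Microglia genes were higher for 9 of 12 (median 0.107), with Csf1r at 7.85 ± 1.33 in KO and 7.56 ± 2.34 in WT. Without KO replicate 1 and WT replicate 3 the higher counts were 6 of 14 for Toll-like and interleukin-1 receptor signalling (median -0.001), 9 of 14 for NF-kB (median 0.039) and 7 of 12 for microglia (median 0.071).

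**Figure D4:**
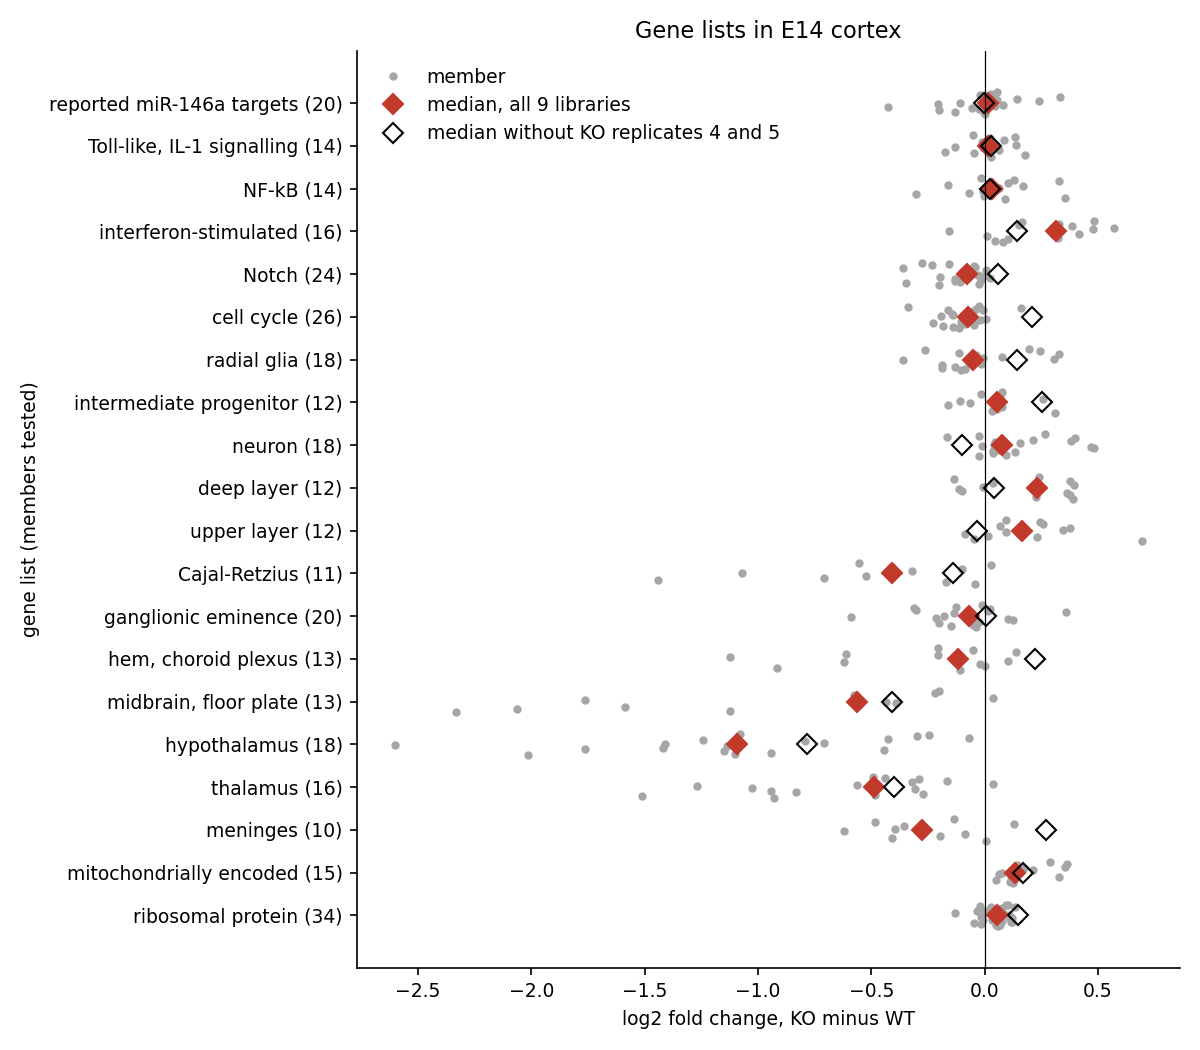
Log2 fold change of KO over WT in E14 cortex (x axis) for tested members of 20 gene lists (y axis, number tested in brackets): grey points are genes, filled diamonds the median over all 9 libraries and open diamonds the median without KO replicates 4 and 5. The midbrain, hypothalamus and thalamus medians stay below 0 in both, while cell cycle, Notch, radial glia and neuron medians change sign. The midbrain and hypothalamus lists include called genes. Midbrain, hypothalamus and thalamus lists hold members that needed WT libraries to be tested, so their place below 0 is no support for a fall.

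The genotype difference at E14 was set against that in frontal cortex at the later ages, to see which genes responded differently. Whole cortex was taken at E14, so age and region cannot be told apart. Pttg1 was the 1 gene called of 15990 tested against P30 (0.00625%) and the 1 called of 16029 tested against P60 (0.00624%). At P30 it was at 0.98, 0.77, 0.77 and 0.98 in KO and 9.74, 8.85, 7.36 and 9.19 in WT, and at P60 at 0.64, 0.55, 1.11 and 0.45 in KO and 7.55, 11.28 and 11.62 in WT. The order of the genotypes was therefore opposite to E14, with no overlap at any of the 3 ages. The E14 log2 fold change exceeded that at P30 by 4.61 (SE 0.246, limma adjusted p = 1.38e-09) and that at P60 by 4.95 (SE 0.294, limma adjusted p = 3.82e-08).

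Lyrm7 was higher in KO at all 3 ages. At P30 it was at 21.98, 18.71, 17.30 and 22.38 in KO and 8.20, 11.98, 10.02 and 8.22 in WT, and at P60 at 18.15, 21.70, 21.97 and 22.64 in KO and 10.98, 9.71 and 10.43 in WT. The log2 fold change at E14 exceeded that at P30 by 0.08 (SE 0.168, limma adjusted p = 1.00), which does not show that the 2 are equal. Levels are set across tables that were normalised separately, so only differences within an age were tested.

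**Figure D5:**
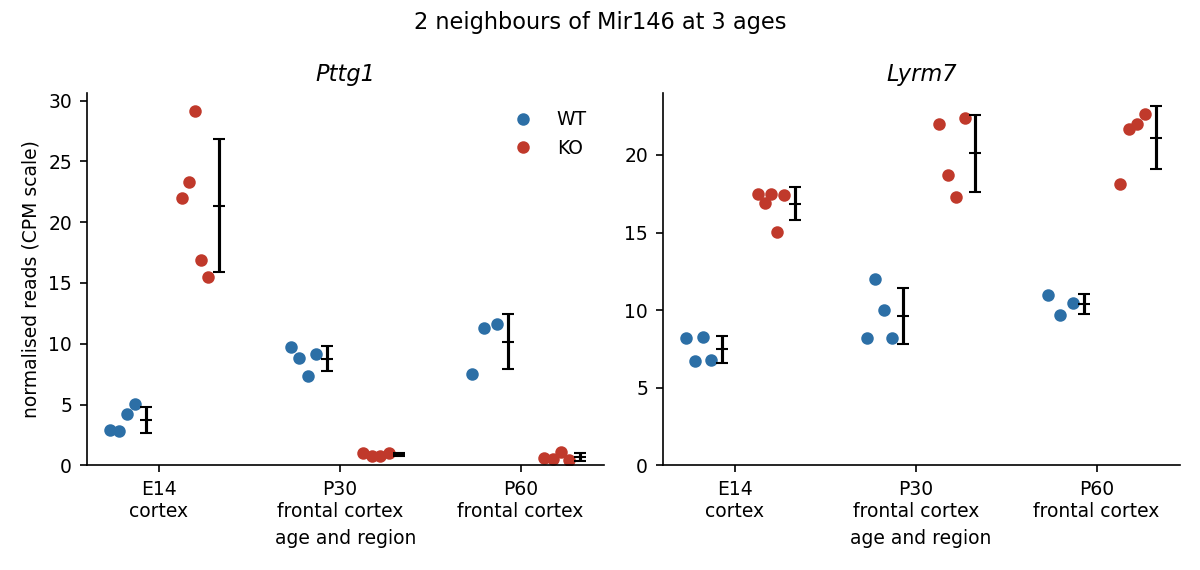
Normalised reads on the CPM scale (y axes, from 0) of Pttg1 and Lyrm7 in E14 cortex and in frontal cortex at P30 and P60 (x axes), for WT (blue) and KO (red) libraries with mean ± SD. Pttg1 is above WT in KO at E14 and below WT at P30 and P60, and Lyrm7 is above WT in KO at all 3 ages.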

How the data were processed

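RNA of 9 E14 cortices was sequenced as stranded poly-A libraries, per the labels' protocols. The authors deposited normalised values per gene, CPM on a scaled library size. Column totals were 986240 to 1019556, and each, as a multiple of the CPM base, times a trimmed mean of M-values (TMM) factor computed here gave 1.000 in every library; the scaling itself is not given in the sources used here. limma, DESeq, edgeR and build mm9 are named without a role in the submitters' processing notes. Every deposited value was a whole number of reads within 0.1 read (100.0%), which gave depth. Of 48526 gene IDs 48144 matched GENCODE M21, whose GRCm38 positions are printed. In this table the symbol and name headers are exchanged, so symbols came from the annotation.

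Genes with 10 reads at the median depth in 4 libraries and 15 reads in all were tested with limma-trend (limma 3.58.1, R 4.3.3, robust) on log2(value + 1), which understates changes of low genes, with Benjamini-Hochberg adjustment at 0.05. Differences between ages are interaction contrasts. The test was also run on simulated data. These held no likeness between libraries such as that of KO replicates 4 and 5, so that run cannot speak to the stability of the calls. Genes named were all those called, the best known targets, the 8 smallest p in each direction with a mean of at least 5, and from each list and from the 20 Mb around Mir146 the first 2 tested or the separated members; levels of other listed genes are given as description. The members and lists were chosen with earlier results of these data known. The values of 1 called gene, lower in KO, and of a few further genes are not reported here. The labels and the series text differ on region and age names, and the labels were followed.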

Additional observations from a re-analysis of the deposited data

Results flagged for a closer look

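In 7 genes a single library lay far from the others of its group by Dixon's test, which chance gives in about 1 in 20 groups. Among KO libraries these were Lyrm7 in replicate 4 (15.02, the lowest), Hint1 and Uqcrq in replicate 3 (174.31 and 69.50, the highest) and Tbc1d9b in replicate 5 (81.03, the highest). Among WT libraries they were Onecut2 in replicate 4 (65.60, the lowest), Irx5 in replicate 1 (4.26, the highest) and Cdkn1b in replicate 3 (109.51, the lowest). The genotype difference of Pttg1 differed between E14 cortex and later frontal cortex by a test of the difference itself. It differed by 4.61 between E14 and P30 and by 4.95 between E14 and P60 on the log2 scale. Age and region change together in this contrast and cannot be told apart.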

How the results depend on the processing

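The count of 9 genes fell to 5 with a pseudocount of 0.1, 5 by limma-voom on recovered reads, 3 with the replicate block, and 4 without KO replicate 1 and WT replicate 3 together, a setting chosen after seeing the data; without each library in turn it was 5 to 9 (5 without KO replicate 4 or WT replicate 3). Same-numbered libraries had correlations of deviations of -0.207, 0.256, 0.056 and -0.399, against -0.489 to 0.612 for differently numbered ones. These values cannot show whether the numbers mark a pairing. The block also removes KO replicate 5. The 3 higher genes were called in all other settings run here, Pttg1 in the block too, where Gm5913 and Lyrm7 had limma adjusted p = 0.093. Foxa1 and Foxb1 lost the call with pseudocounts of 0.1 and 0.5, by limma-voom (each 0.113) and without KO replicates 4 and 5 (each 0.0655). Separated genes within 20 Mb numbered 17, and 39 without KO replicates 4 and 5. Traf6 changed sign with plain CPM (-0.017), limma-voom (-0.0047) and without KO replicate 1 and WT replicate 3 (-0.008), and ran from -0.026 to 0.047 without each library. Irak1 did so with sex as a covariate (0.00044) and without KO replicates 4 and 5 (0.025), running from -0.038 to 0.049. Without KO replicates 4 and 5 Notch1 was at 0.101 and Numb at 0.031, and Numb at 0.012 with sex as a covariate; without each library they ran from -0.307 to -0.054 and from -0.125 to -0.001. The calls against P30 and P60 were 1 gene in every setting, the replicate block included. The planned edgeR and DESeq2 fits were not run. The cause of these changes was not tested. A single read was worth 0.104 to 0.126 on the CPM scale, so levels under 1 rest on fewer than 10 reads a library.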

Other observations

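Transcripts of the sex chromosomes gave 2 female and 3 male KO libraries and 3 female and 1 male WT library. KO replicate 1, with Xist at 3554, also had a sum of 9.16 for 4 Y-linked genes, against 0.11 to 0.46 in the other female libraries. WT replicate 3, with a Y-linked sum of 362, had Xist at 35.79, against 3.78 to 4.43 in the other males. With sex as a covariate 7 genes were called in place of 9, and the 3 higher ones remained among them. Foxb1 (limma adjusted p = 0.0883) and Ttc6 (0.0597) lost the call. The medians of cell cycle (0.020), meningeal (0.176) and choroid plexus and hem genes (0.198) turned above 0 with this covariate. Those of Notch (-0.023) and radial glia genes (-0.024) stayed below 0.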
